A study of Mus musculus with 2 samples.

Results

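The genes described here are 53 that serve protein translocation into the endoplasmic reticulum (ER) and transport between the ER and the Golgi apparatus, out of 31053 genes counted. They were taken by name, as a list of subunits of the translocation channel and its partners, the COPII and COPI vesicle coats, and the receptors that load or retrieve cargo. All 53 were found in the deposited matrices and all 53 passed the filter on low counts. They were followed across the 12 cell classes that the authors had assigned to single cells of the mouse ileum.

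The samples were 2 single-cell libraries, replicates 1 and 2, of one group of mice. Both came from Atoh1CreER-T2;R26RTom mice, in which a recombinase that tamoxifen switches on is made under the control of Atoh1, the factor that starts the secretory lineage, and recombined cells and their progeny make the red Tom protein. Tamoxifen at 1 mg/mL was injected into the peritoneum in 2 doses 24 h apart, and ileal crypt cells were taken 12 h later and sorted as live Tom+ cells. There was no untreated, Tom-negative or mutant group, so every comparison is between classes of cells that share genotype and treatment. Stem cells and enterocyte progenitors are likewise present only as cells sorted as Tom+. Whether separate animals or pools gave the libraries is not stated in the labels.

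The authors' classes were ISC (intestinal stem cells), SEC-PRO (secretory progenitors), GP (a name that no source used here explains), GOBLET-PRE and GOBLET, PANETH-PRE and PANETH, EEC-PRE (precursors of the hormone-making enteroendocrine cells), EC and NON-EC (enterochromaffin and other enteroendocrine cells), TUFT and ENTERO-PRO (read here as enterocyte progenitors). The libraries held 5305 and 6257 listed cells with a median of 5706 and 3503 UMIs (unique molecular identifiers, one per captured transcript), and 12 barcodes occurred in both. UMIs were added up per class and library into 24 sums of 129631 (EC, replicate 1) to 13770059 UMIs (GOBLET-PRE, replicate 1). The marker lists of EC, ENTERO-PRO, GOBLET, ISC, NON-EC, PANETH, SEC-PRO and TUFT each had their highest sums in the class of that name. For example, 6 Paneth markers summed to 461000 and 492500 CPM (counts scaled to a common total of UMIs) in PANETH, and 5 tuft markers to 4442 and 2789 CPM in TUFT. The 5 enteroendocrine markers peaked in EC, at 61210 and 41110 CPM, against 2669 and 3017 CPM in EEC-PRE. Single markers did not all follow their list. The SEC-PRO sum was mostly Mki67 and Top2a. Atoh1 was higher in GP (163.1 and 126.2 CPM) than in SEC-PRO (141.4 and 116.2 CPM). The goblet marker Spink4 was highest in PANETH-PRE, the stem cell marker Smoc2 in EEC-PRE and the enterocyte marker Sis in EC. The immune list came to between 107.4 and 1660 CPM, almost all of it Cd74, and Ptprc was at most 36.2 CPM, in TUFT. Vim, a stromal marker, reached 1065 and 728.7 CPM in EC, while Col1a1 and Pdgfra were at 0 in both libraries there.

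A secreted protein enters the ER while it is being made. The signal recognition particle (SRP) brings the ribosome to the Sec61 channel, the translocon-associated protein (TRAP) complex assists entry, and signal peptidase cuts off the signal peptide. Folded cargo leaves in COPII-coated vesicles, and COPI-coated vesicles together with KDEL receptors bring escaped ER proteins back. Goblet cells, which make mucus, and Paneth cells, which make antimicrobial peptides, are known for a large secretory pathway.

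The 53 genes together took up the smallest share of all UMIs in PANETH and the largest in GP. In GP they made up 1.55% of UMIs in replicate 1 and 1.46% in replicate 2, followed by GOBLET-PRE with 1.46% and 1.37% and SEC-PRO with 1.26% and 1.18%. In ISC the share was 0.662% and 0.700%, so that it was 1.91 and 1.69 times as high in SEC-PRO and 2.35 and 2.08 times as high in GP. The order ISC, SEC-PRO, GP held in both libraries. PANETH-PRE held 1.165% and 1.03%. Mature GOBLET had 0.707% and 0.808%. TUFT was at 0.712% and 0.663%, EEC-PRE at 0.691% and 0.670% and EC at 0.620% and 0.737%. NON-EC was at 0.829% and 0.833%, and ENTERO-PRO at 0.894% and 0.898%. In PANETH the share was only 0.329% and 0.307%.

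Most UMIs of PANETH came from secreted products, and shares of all UMIs carry this. A list of 41 secreted cargo genes, mucins and antimicrobial peptides among them, took up 77.4% and 74.2% of UMIs in PANETH and 40.2% and 40.5% in GOBLET, against 2.72% and 4.10% in ISC. Outside this cargo, the 53 genes made up 1.46% and 1.19% of the remaining UMIs in PANETH, 1.81% and 1.59% in PANETH-PRE, 1.80% and 1.69% in GOBLET-PRE and 1.18% and 1.36% in GOBLET. ISC stayed at 0.681% and 0.730%. With cargo left out PANETH was no longer the lowest class and lay above ISC in both libraries. GP, at 1.72% and 1.64%, was then no longer the highest class and lay below GOBLET-PRE in both libraries. A PANETH cell held on average 72.1 and 40.4 UMIs of the 53 genes, against 87.9 and 52.1 in PANETH-PRE and 37.8 and 30.3 in ISC. A GP cell held 69.8 and 43.6, against 86.8 and 47.1 in GOBLET-PRE and 65.1 and 43.5 in SEC-PRO. Free RNA, taken from barcodes with at most 50 UMIs, had a share of 0.921% and 0.693%, which is above the share in ISC in replicate 1 and below it in replicate 2. Thinning each cell to 2000 UMIs left the shares of GP at 1.54% and 1.47% and of ISC at 0.637% and 0.670%.

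**Figure D1:**
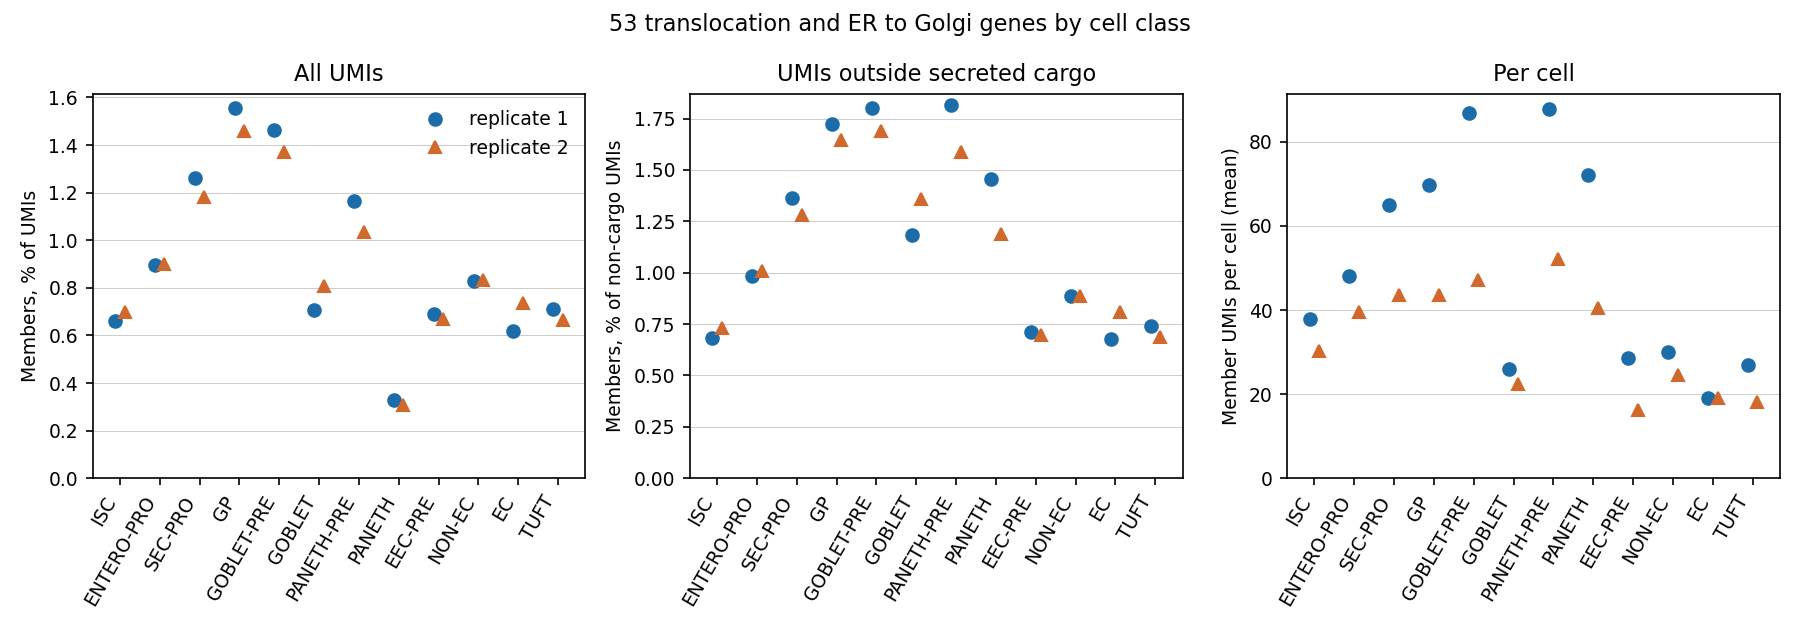
Share of UMIs that came from the 53 translocation and ER to Golgi genes, by cell class (left, % of all UMIs; middle, % of UMIs outside 41 secreted cargo genes; right, mean member UMIs per cell). Each point is 1 library; PANETH lies lowest on the left, at 0.329% and 0.307%, but above ISC in the middle panel.

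The levels of single genes were compared after TMM scaling, which sets the bulk of moderately and highly expressed genes equal between sums. They are given as CPM for replicates 1 and 2, and because each UMI tags the 3′ end of 1 transcript they were not divided by gene length. On this scale PANETH was the highest class for 19 of the 53 genes, GOBLET for 13 and GOBLET-PRE for 10. ISC, SEC-PRO, EEC-PRE, NON-EC and TUFT were the highest for 0. Without scaling, GP was highest for 37 and PANETH lowest for 46. The top class was the same in both libraries for 31 of the 53 genes, so the exact order among goblet and Paneth classes is often within the spread of the libraries. Kdelr3 had the widest range between class means, 12.7-fold, followed by Tmed3 (10.8-fold), Sec11c (9.56-fold), Sec16b (9.53-fold), Sec23a (8.14-fold) and Sec24d (8.09-fold). Several of these ranges rest on few UMIs, so their order is uncertain. The lowest class held 4 and 3 UMIs of Kdelr3 (NON-EC) and 4 and 16 of Tmed3 (EC). Sec16b had 4 and 4 UMIs in GOBLET and 1 and 2 in NON-EC. Sec23a had 5 and 10 in GOBLET and 0 and 3 in EEC-PRE. Srp72, Sec13 and Copz1 varied least, by 2.15-, 2.16- and 2.22-fold.

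**Figure D2:**
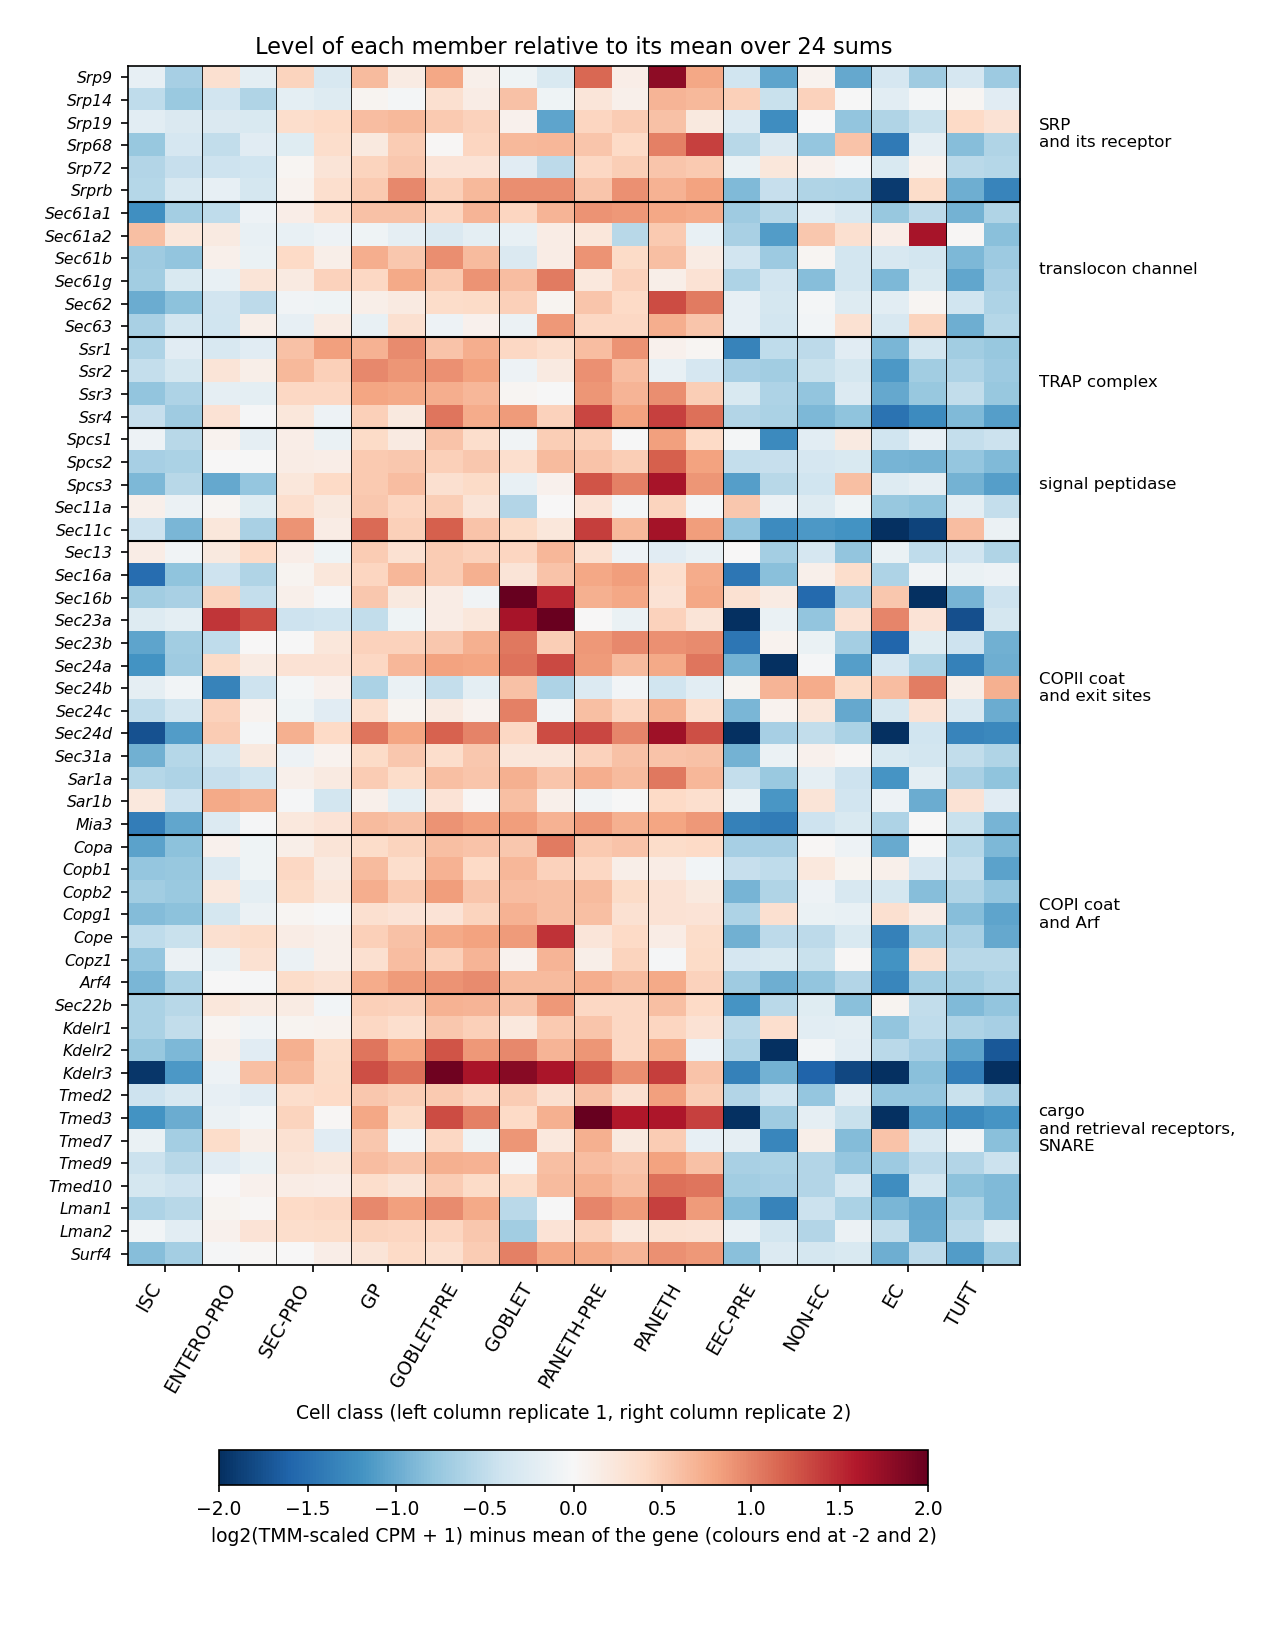
Level of each of the 53 genes in 24 sums (12 classes, replicate 1 left and replicate 2 right), as log2(TMM-scaled CPM + 1) minus the gene's mean, ordered by role. Most genes are red from SEC-PRO to PANETH and blue in ISC, EEC-PRE, EC and TUFT; Sec24b, Sec61a2, Sec23a and Sar1b do not follow this pattern.

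Classes were compared with edgeR's quasi-likelihood test, with class and library as terms, over 10994 genes. A gene is called higher or lower where its Benjamini-Hochberg adjusted p was under 0.05. The p-values measure only the spread left between these 2 libraries, and since the authors' classes rest on the same expression values they are not independent evidence of a difference between classes. Several comparisons share a class and so are not independent of each other.

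SEC-PRO was compared with ISC as a step into the secretory lineage. The ISC cells were sorted as Tom+ too, so stem cells without the label were not sampled. Of the 53 genes 47 were higher and 1 was lower in SEC-PRO, beside 19.3% of all genes tested that were higher and 15.2% that were lower. The median log2 change was 0.74, against 0.023 over all genes. Without the library term 37 were still called higher. All 6 SRP genes, all 4 TRAP genes, all 5 signal peptidase genes, all 7 COPI and Arf genes and all 12 receptor and SNARE genes were higher, as were 5 of 6 channel genes and 8 of 13 COPII genes.

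Kdelr3, a KDEL receptor that returns chaperones to the ER, gave the largest change. It stood at 6.33 and 11.8 CPM in ISC and at 43.4 and 35.7 CPM in SEC-PRO, a log2 change of 1.94 ± 0.18 (SE, edgeR adjusted p = 2.44e-13). The level in both SEC-PRO libraries lay above that in both ISC libraries. Its relative Kdelr2 went from 103.8 and 93.9 to 290.6 and 228.8 CPM (log2 1.37 ± 0.11). Sec24d, a cargo-binding subunit of the inner COPII coat, rose from 8.10 and 13.1 to 48.8 and 39.2 CPM, a log2 change of 1.91 ± 0.17 (edgeR adjusted p = 7.2e-16). Mia3, also called TANGO1, loads bulky cargo such as collagen into COPII carriers. Its level was 46.1 and 58.5 CPM in ISC and 140.7 and 146.5 CPM in SEC-PRO (log2 1.43 ± 0.11, edgeR adjusted p = 1.24e-18).

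The channel itself changed in the same comparison. Sec61a1, its main pore subunit, rose from 65.3 and 95.5 to 169.1 and 195.6 CPM (log2 1.16 ± 0.11). The small subunits Sec61b and Sec61g rose by 1.01 and 0.82 on the log2 scale. Sec61a2, which encodes a second form of the pore, was the gene that fell, from 17.2 and 13.1 to 9.84 and 10.2 CPM (log2 -0.57 ± 0.21, edgeR adjusted p = 0.0286). This call was lost without the library term, in cells thinned to 2000 UMIs Sec61a2 was not tested, and the gene shares exon sequence with Nudt5 on the opposite strand. Sec13 (log2 -0.01), Sar1b (-0.08), Sec23a (-0.18), Sec24b (0.17) and Sec24c (0.24), all of the COPII coat, did not pass. The TRAP genes Ssr1 (log2 1.12) and Ssr3 (1.11) and the catalytic signal peptidase subunit Sec11c (1.19) stood among the larger changes of the translocation machinery. In the COPI group, which moves vesicles from Golgi to ER, Copa was at log2 1.12, Arf4, a small GTPase of Golgi membranes, at 1.09 and Copz1 at 0.41.

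Promoter sequence was examined because so many of these genes moved together. RefSeq (GRCm38.p6) gave the 250 bases before the start of 43 of the 53 genes. The remaining 10 were Kdelr2, Lman1, Sec11c, Sec61a1, Spcs3, Srp19, Srp68, Ssr2, Tmed2 and Tmed7. The unfolded protein response element (UPRE), a sequence known to be bound by the stress factors XBP1 and ATF6, was searched as TGACGTGG on either strand. It occurred in 4 of 43 promoters (9.30%), against 0.603% of 27025 genes with a promoter and 0.953% of the 6294 of them with at least 500 UMIs. The 4 genes were Kdelr3, Sec24d, Sec16b and Copb1, and each match lay between 19 and 44 bases before the RefSeq start. GENCODE M21, used below for positions, starts Sec24d, Sec16b and Copb1 further upstream, at 123267455, 157506728 and 114254711. By that annotation their matches lie inside the gene, and only that of Kdelr3 lies before its start. The 4 genes are shown because they include the members with the largest changes in SEC-PRO. Kdelr3 is given with its 250 bases (chr15:79516158-79516407, plus strand) and the others with 10 bases around the match: Sec24d (chr3:123267460-123267487, plus strand), Sec16b (chr1:157506742-157506769, plus strand) and Copb1 (chr7:114254691-114254718, minus strand). Each runs 5′ to 3′ on the strand of its gene, and capitals mark the element, read as CCACGTCA where it lies on the other strand, and the overlapping core described next.
Kdelr3: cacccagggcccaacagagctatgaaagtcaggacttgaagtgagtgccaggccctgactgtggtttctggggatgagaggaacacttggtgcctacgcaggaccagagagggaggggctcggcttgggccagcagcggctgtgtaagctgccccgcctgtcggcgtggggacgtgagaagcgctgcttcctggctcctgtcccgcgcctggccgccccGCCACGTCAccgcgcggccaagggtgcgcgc
Sec24d: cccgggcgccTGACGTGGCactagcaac
Sec16b: tctgtgtggcTGACGTGGCacggcagtt
Copb1: ccgcccccttCCACGTCAgccaaggact

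In SEC-PRO against ISC the 4 genes with this element had log2 changes of 0.79 (Sec16b), 1.06 (Copb1), 1.91 (Sec24d) and 1.94 (Kdelr3). Their median was 1.48, against 0.67 for the 39 others with a promoter. The number is small and no test was made. A shorter core, GCCACGT on either strand, overlaps the element in 3 of the 4 genes and is also a preferred sequence of XBP1. It was found in 11 of 43 promoters (25.6%), against 2.33% of all genes and 4.02% of those with at least 500 UMIs. Besides Kdelr3, Sec24d and Sec16b these were Sar1a, Sec24c, Sec63, Spcs1, Srprb, Ssr1, Ssr3 and Tmed3. Genes with the core had a median log2 change of 0.79 and those without it of 0.70. Examples from the TRAP complex, the channel and the p24 cargo receptors are Ssr1 (chr13:37994246-37994312, minus strand), Ssr3 (chr3:65392708-65392774, minus strand), Sec63 (chr10:42761443-42761495, plus strand) and Tmed3 (chr9:89705208-89705274, minus strand), with the core in capitals.
Ssr1: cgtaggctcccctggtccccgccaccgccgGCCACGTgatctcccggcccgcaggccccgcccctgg
Ssr3: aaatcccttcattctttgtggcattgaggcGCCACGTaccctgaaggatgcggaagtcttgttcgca
Sec63: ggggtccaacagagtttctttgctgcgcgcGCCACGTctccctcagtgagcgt
Tmed3: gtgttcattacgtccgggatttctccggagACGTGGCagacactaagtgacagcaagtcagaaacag

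The longer ER stress elements ERSE and ERSE-II, searched on both strands, occurred in 0 of 43 promoters and in 0.13% and 0.037% of all genes. The CCAAT box, a common promoter element, was found in 16 of 43 (37.2%), close to the 37.5% of all genes. Both matches and missing matches describe these letters in these windows only.

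Other genes of the pathway were also higher in SEC-PRO than in ISC. From a list of further vesicle transport genes, 38 of 67 tested were higher and 3 were lower, beside the 19.3% and 15.2% of all genes that hold for every list here. The clearest were Ergic1 (log2 1.53 ± 0.12), a protein of the ER-Golgi intermediate compartment, the tethering factor Uso1 (1.19 ± 0.115) and Tram1 (1.23 ± 0.12), which sits beside the channel. The oligosaccharyltransferase genes, whose products attach N-glycans to entering chains, were higher in 11 of 12 cases, with Ostc at 1.21, Stt3a at 1.19 and Rpn1 at 1.01. Genes for tail-anchored and multipass membrane protein insertion (EMC and GET) numbered 1 higher and 3 lower of 17 (5.88% and 17.6%, median log2 0.014). Regulators of secretory capacity were higher in 9 of 13 cases. Spdef went from 19.5 and 37.8 to 126.6 and 143.2 CPM, and Creb3l1 from 32.9 and 65.5 to 252.4 and 274.9 CPM. Late secretory and granule genes were higher in 15 of 21 cases, with Sytl2 at 1.89, Rab3d at 1.79 and Rab27b at 1.58.

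GP, compared with SEC-PRO, had still higher levels. Of the 53 genes 28 were higher and 0 lower, beside 4.38% and 12.7% of all genes, and the median log2 change was 0.32 against -0.068 over all genes. At an unadjusted p under 0.05 edgeR had 1 member lower, and DESeq2 called 26 higher and 0 lower. Without the library term, edgeR called 0 of the 53 genes, although 16 of the 53 were higher at an unadjusted p under 0.05. Kdelr3 rose again, from 43.4 and 35.7 to 67.8 and 59.2 CPM (log2 0.68 ± 0.15, edgeR adjusted p = 4.84e-04). Srprb, the membrane-bound subunit of the SRP receptor, went from 27.0 and 32.4 to 37.2 and 50.5 CPM (log2 0.55 ± 0.15). Lman1, a lectin that carries glycoproteins out of the ER, went from 229.9 and 231.6 to 338.9 and 306.1 CPM (log2 0.48 ± 0.10, edgeR adjusted p = 1.38e-04). Copz1, a COPI subunit, rose by 0.48 ± 0.12. Every one of these changes was under 2-fold. The oligosaccharyltransferase genes were higher in 6 of 12 cases, among them Dad1 (log2 0.45), and the regulators in 4 of 13, among them Spdef (0.61), Bhlha15 (0.64) and Creb3l2 (0.89).

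Few of the genes passed between GOBLET-PRE and GP. Those higher in GOBLET-PRE were 3, beside 4.91% of all genes, and 0 were lower, beside 4.48%. With edgeR at an unadjusted p under 0.05, 9 were higher and 1 was lower, and DESeq2 called 2 higher and 0 lower. Kdelr3 continued upward to 107.3 and 86.5 CPM (log2 0.61 ± 0.13, edgeR adjusted p = 8.17e-04). Tmed3, a p24 cargo receptor, went from 218.3 and 166.7 to 317.2 and 255.9 CPM (log2 0.57 ± 0.12), and the TRAP subunit Ssr4 from 682.9 and 565.6 to 1033 and 826.8 CPM (log2 0.57 ± 0.09). These calls were lost without the library term. Without scaling 8 of the 53 were called lower, beside 1741 of all 10994 genes. Late secretory genes differed in 7 of 21 cases, all of them higher in GOBLET-PRE.

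**Figure D3:**
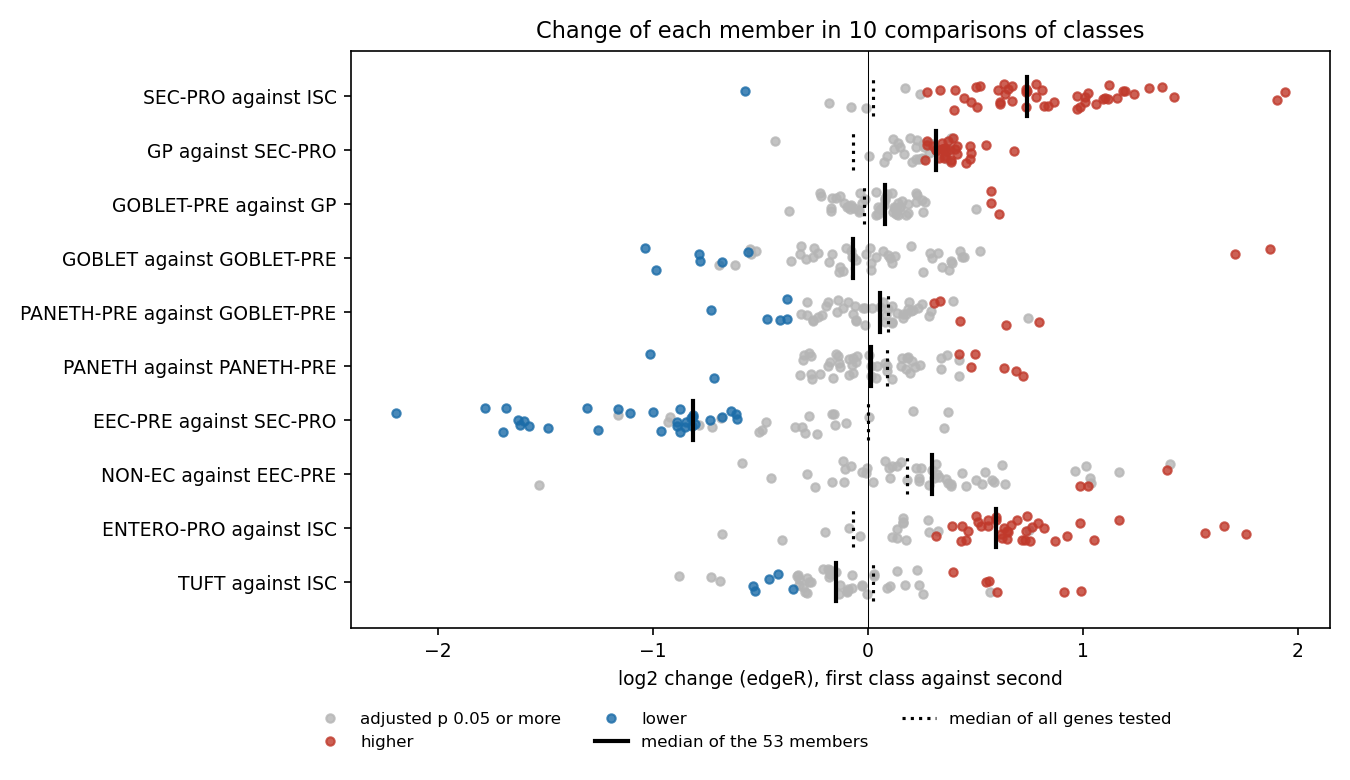
Log2 change of each of the 53 genes in 10 comparisons of classes (points; red, called higher; blue, called lower; grey, not called), with the median of the 53 (solid bar) and of all genes tested (dotted bar). The members lie to the right of all genes in SEC-PRO and ENTERO-PRO against ISC and to the left in EEC-PRE against SEC-PRO.

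Mature GOBLET cells were rare, at 42 and 84 cells, and their sums of 154169 and 232707 UMIs left many members at few counts. Against GOBLET-PRE, 2 members were higher and 6 lower, beside 8.21% and 3.86% of all genes, with a median log2 change of -0.068 against -0.074 over all genes. The genes that fell were Lman1 and 5 genes of the entry machinery, Srp19, Sec61b, Ssr2, Ssr3 and Sec11c. Lman1 went from 334.2 and 294.8 to 118.5 and 172.8 CPM (log2 -1.04 ± 0.22, edgeR adjusted p = 2.75e-04). Sec61b went from 1267 and 1033 to 543.0 and 734.6 CPM (log2 -0.78 ± 0.14, edgeR adjusted p = 3.06e-05). Ssr2 went from 462.4 and 427.3 to 227.1 and 277.8 CPM (log2 -0.78 ± 0.18), and Srp19, an SRP subunit, from 186.5 and 178.4 to 138.2 and 61.7 CPM (log2 -0.98 ± 0.29). In each of these the GOBLET libraries lay below both GOBLET-PRE libraries.

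The members called higher in GOBLET were only 3.77% of the 53, beside 8.21% of all genes. They were Sec23a and Sec16b, both of the COPII group. Sec23a, an inner coat subunit, was at 49.4 and 61.7 CPM against 16.7 and 17.7 CPM (log2 1.71 ± 0.48, edgeR adjusted p = 0.00798), from 5 and 10 UMIs in GOBLET. Sec16b, a scaffold of ER exit sites, was at 39.5 and 24.7 against 8.99 and 7.57 CPM (log2 1.87 ± 0.66, edgeR adjusted p = 0.0484), which rests on 4 UMIs in each GOBLET library. Only Sec23a of the pair was called without the library term. In cells thinned to 2000 UMIs 0 members were called higher, and Sec16b was not tested there. Without scaling, 0 members were higher and 33 lower, with a shift of -0.70 in the median of all genes. Of all 10994 genes 352 were then higher and 1703 lower. The oligosaccharyltransferase genes were lower in 4 of 12 cases and higher in 0, while late secretory genes were higher in 6 of 21 cases and lower in 0.

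PANETH-PRE was compared with GOBLET-PRE, the precursors of the other granule-bearing cell type. In PANETH-PRE 5 were higher and 5 lower, beside 14.1% and 10% of all genes, and the median log2 change was 0.059 against 0.093 over all genes. Spcs3, an accessory subunit of signal peptidase, was higher at 211.0 and 176.7 against 109.6 and 113.7 CPM (log2 0.80 ± 0.18, edgeR adjusted p = 0.00321). Tmed3 was at 508.2 and 388.6 against 317.2 and 255.9 CPM (log2 0.64 ± 0.12, edgeR adjusted p = 3.81e-05). Sec63 (log2 0.43), Sec61a1 (0.34) and Surf4, a cargo receptor of the ER membrane (0.31), were also higher. Among the lower genes, Kdelr3 was at 64.8 and 52.4 against 107.3 and 86.5 CPM (log2 -0.73 ± 0.16, edgeR adjusted p = 3.54e-04), followed by the COPI subunit Cope (-0.47), Kdelr2 (-0.41), Sec13 (-0.37) and Sec61g (-0.37). Without the library term 2 were higher and 1 lower. Without scaling 1 was higher and 27 were lower, with a shift of -0.36 in the median of all genes. Of all 10994 genes 654 were then higher and 2834 lower.

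From PANETH-PRE to PANETH, 3 of 6 SRP genes were called higher and 2 of 4 TRAP genes lower on the scaled measure. Of the 53 genes 6 were higher and 2 lower, beside 5.36% and 2.79% of all genes, with a median log2 change of 0.018 against 0.089 over all genes. The SRP subunits Srp68, Srp9 and Srp14 were higher, by 0.72 ± 0.16, 0.64 ± 0.125 and 0.50 ± 0.135 on the log2 scale. Srp9 and Srp14 form the part of SRP that slows the ribosome during targeting, and Srp9 went from 256.5 and 125.7 to 400.5 and 197.5 CPM. Sec62, a partner of the channel in post-translational entry of small precursors, went from 344.1 and 308.2 to 574.4 and 481.2 CPM (log2 0.69 ± 0.11, edgeR adjusted p = 1.28e-06). Spcs2 (log2 0.48) and Tmed10 (0.42) were the other members that were higher. Ssr2 fell from 459.9 and 376.4 to 220.3 and 194.4 CPM (log2 -1.01 ± 0.12, edgeR adjusted p = 6.85e-11), and Ssr1 from 250.3 and 303.8 to 171.1 and 166.4 CPM (log2 -0.72 ± 0.12). The other TRAP subunits, Ssr3 (-0.07) and Ssr4 (0.16), did not pass.

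These directions depend on scaling. Without it all 53 members were called lower in PANETH, beside 8987 of all 10994 genes, and the median of all genes shifted by -1.81. Srp68, Sec62, Srp9 and Srp14 turned to log2 -1.10, -1.14, -1.20 and -1.32. On the scaled measure Ssr1 and Ssr2 lay below the median of all genes and these 4 genes above it. Scaling moves all genes of a comparison by nearly the same amount. Their place relative to that median is therefore kept without scaling, which makes it no separate check. Without the library term 1 member was higher and 2 were lower. Among regulators, Creb3l1 (log2 -1.25) and Spdef (-0.94) were lower in PANETH, and among further vesicle genes Tmed6 (1.52) and Copz2 (1.53) were higher.

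The 2 maturation steps, which share no class, were compared by a test of the difference of their changes. Of the 53 genes 4 had a larger change in the Paneth step, beside 3.38% of all genes, and 0 a smaller one, beside 5.07%. With edgeR at an unadjusted p under 0.05 the counts were 11 and 3, and DESeq2 called 8 and 1. Lman1 differed by 1.24 ± 0.25 on the log2 scale (edgeR adjusted p = 1.78e-04), being at -1.04 in the goblet step and at 0.20 in the Paneth step. Srp9 differed by 1.25 ± 0.30 (edgeR adjusted p = 0.00203), Sec62 by 0.82 ± 0.21 and Sec11c by 0.80 ± 0.195. Without scaling 0 were larger and 36 smaller, with a shift of -1.12 in the median of all genes. Of all 10994 genes 33 were then larger and 2778 smaller. Without the library term 1 member was larger.

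**Figure D4:**
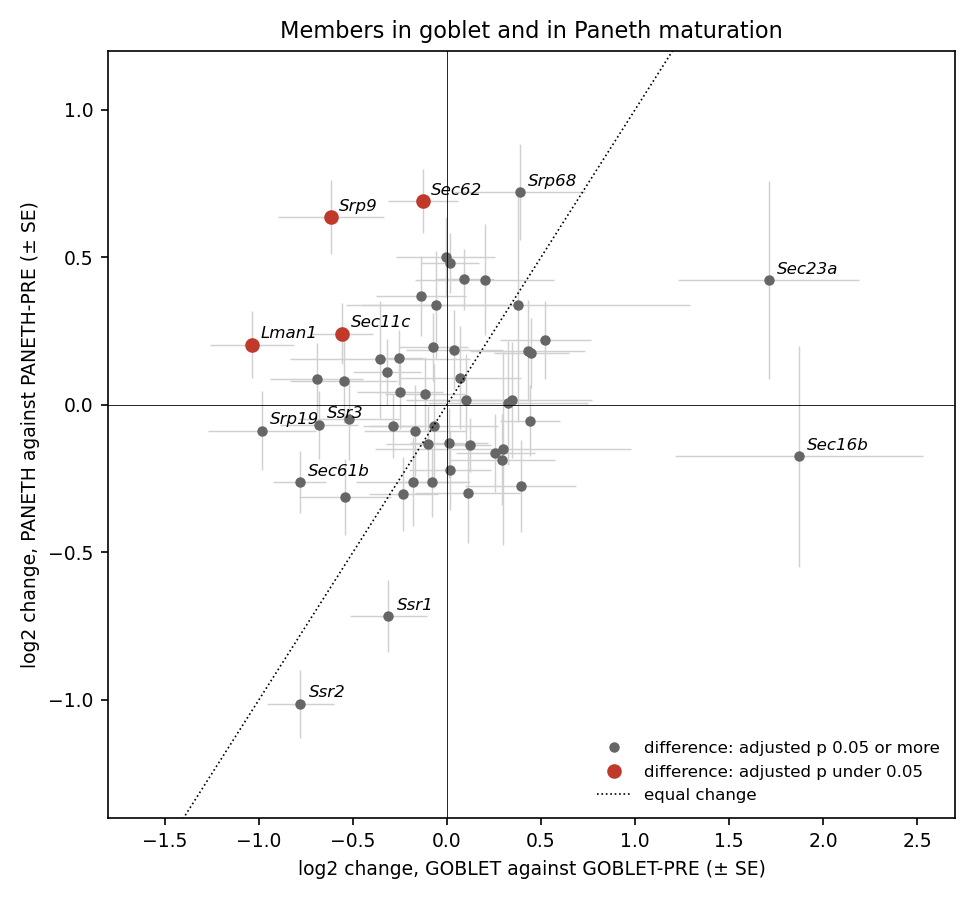
Log2 change of each of the 53 genes from GOBLET-PRE to GOBLET (x axis) and from PANETH-PRE to PANETH (y axis), with standard errors; red points differed between the steps at an adjusted p under 0.05 and the dotted line marks equal change. Lman1, Srp9, Sec62 and Sec11c lie above the line, and Ssr2 is below 0 on both axes.

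Many members were lower in the precursors of hormone-making cells than in the secretory progenitors. In EEC-PRE, compared with SEC-PRO, 31 of the 53 genes were lower and 0 higher, beside 10.6% and 12.7% of all genes, and the median log2 change was -0.81 against -0.0010 over all genes. DESeq2 also called 0 higher and 31 lower, and edgeR at an unadjusted p under 0.05 had 0 higher and 36 lower. All 4 TRAP genes, 10 of 12 receptor and SNARE genes and 5 of 7 COPI and Arf genes were lower. Kdelr2 was at 114.2 and 41.0 against 290.6 and 228.8 CPM (log2 -1.68 ± 0.215, edgeR adjusted p = 7.91e-10). Sec24d was at 3.36 and 18.2 against 48.8 and 39.2 CPM (log2 -2.20 ± 0.54, edgeR adjusted p = 0.00103), from 1 and 4 UMIs in EEC-PRE. Kdelr3 (log2 -1.78 ± 0.54) and Sec24a (-1.70 ± 0.42) rested on 3 and 3 and on 7 and 2 UMIs. Sec11a (0.01), Srp14 (0.37), Sec24b (0.36) and Sec16b (0.21) had no negative change and did not pass. The oligosaccharyltransferase genes were lower in 11 of 12 cases, and the insertion genes (EMC and GET) in 0 of 17, with 1 higher. Among regulators Spdef (log2 -2.41), Creb3l1 (-1.55) and Xbp1 (-0.91) were lower.

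NON-EC, compared with EEC-PRE, had 3 members higher and 0 lower, beside 6.06% and 3.56% of all genes. By edgeR at an unadjusted p under 0.05 the counts were 11 and 0, and DESeq2 called 2 and 0. Sec16a, the main scaffold of ER exit sites, was at 70.5 and 84.0 against 23.5 and 36.4 CPM (log2 1.39 ± 0.38, edgeR adjusted p = 0.00823). Mia3 was at 91.2 and 98.0 against 47.0 and 45.5 CPM (log2 1.02 ± 0.32), and Kdelr2 at 169.9 and 151.6 against 114.2 and 41.0 CPM (log2 0.99 ± 0.26). In each case both NON-EC libraries lay above both EEC-PRE libraries. The SE of most members was wide here, since the EEC-PRE sums held only 236455 and 176639 UMIs.

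ENTERO-PRO, compared with ISC, also had higher levels of many members. Of the 53 genes 37 were higher and 0 lower, beside 18.7% and 18.4% of all genes, with a median log2 change of 0.595 against -0.070. With edgeR 0 were lower at an unadjusted p under 0.05, and DESeq2 called 32 higher and 0 lower. Kdelr3 was at 25.4 and 41.8 CPM (log2 1.76 ± 0.295, edgeR adjusted p = 1.80e-06). Sec23a was at 42.3 and 38.5 against 12.4 and 13 CPM in ISC (log2 1.66 ± 0.26, edgeR adjusted p = 1.26e-07), and its difference from the change in SEC-PRO was not tested. Sec24d was at 42.3 and 28.6 CPM (log2 1.57 ± 0.28) and Sec24a at 60.7 and 51.7 CPM (log2 1.17 ± 0.21). All 7 COPI and Arf genes and 9 of 13 COPII genes were higher. Of the 6 SRP genes 1 was higher, a share of 16.7%. The 6 goblet markers together were also higher in ENTERO-PRO, at 55380 and 63410 CPM against 11040 and 18830 CPM in ISC. Their part in these changes was not tested.

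Few members passed between TUFT and ISC. In TUFT 6 were higher and 5 lower, beside 15.5% and 13.6% of all genes, with a median log2 change of -0.15 against 0.026 over all genes. Sec11c was at 452.5 and 272.0 against 222.6 and 156.5 CPM (log2 0.91 ± 0.12, edgeR adjusted p = 6.03e-10), and Sec16a at 59.7 and 61.3 against 22.3 and 37.3 CPM (log2 0.99 ± 0.21). Srp19 (log2 0.60), Mia3 (0.56), Srp14 (0.55) and Sec62 (0.40) were the other higher members, and Sec13 (-0.53), Kdelr2 (-0.52), Tmed10 (-0.46), Ssr4 (-0.42) and Sec61g (-0.35) the lower ones. Without the library term 3 were higher and 0 lower, and that count no longer held Sec11c.

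Several members occur as related genes, and the make-up of these sets differed between classes. Shares are given as % of the UMIs of a set, with exact (Clopper-Pearson) 95% binomial intervals that cover counting error only, and no test was made. Sec24d held 11.3% (7.86 to 15.6%) and 14.6% (12.3 to 17.1%) of Sec24 UMIs in ISC, against 30.4% and 26.2% in SEC-PRO and 34.0% (30.6 to 37.6%) and 28.2% (24.5 to 32.0%) in GP. Sec24b made up 23.7% and 20.8% in ISC and 6.58% and 8.47% in GOBLET-PRE. The Sec24 forms are known to bind different export signals of cargo. In ENTERO-PRO Sec24b held 4.31% and 10.6% and Sec24d 25.9% and 21.1%. In EEC-PRE Sec24b held 30.0% and 31.8%, from 6 and 7 UMIs.

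Kdelr3 was the smallest part of the KDEL receptor set in all 12 classes of both libraries, but its part was larger in goblet classes. It made up 3.20% (2.08 to 4.69%) and 5.80% (4.80 to 6.92%) in ISC, 10.9% and 11% in GP and 14.7% (14.0 to 15.4%) and 14.5% (13.3 to 15.7%) in GOBLET-PRE. PANETH was at 13.1% and 10.9% and EEC-PRE at 4.62% and 6%, the latter from 3 UMIs in each library. In SEC-PRO and ENTERO-PRO the part of Kdelr3 also lay above that of ISC in both libraries. Sec11c, 1 of the 2 catalytic forms of signal peptidase, made up 66.7% and 62.0% of the pair in ISC, 86.9% (84.8 to 88.7%) and 84.1% (81.4 to 86.5%) in PANETH, and 53.1% (42.7 to 63.4%) and 56.2% (41.2 to 70.5%) in EEC-PRE. Intervals of PANETH and EEC-PRE did not meet in either library. In TUFT there were 364 and 142 UMIs of Sec11c against 73 and 39 of Sec11a, so the Sec11c part was above that of ISC there too.

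The small GTPase that starts COPII assembly comes in the forms Sar1a and Sar1b, and Sar1b is known for the export of chylomicrons from enterocytes. Sar1b held the larger part in ENTERO-PRO, with 59.4% (49.5 to 68.9%) and 57.4% (48.6 to 65.8%), and the smaller part in GOBLET-PRE, with 32.8% and 29.8%. In ISC it was 51.6% and 41.5%. Sec23a held 51.7% (38.2 to 65.1%) and 40.2% (29.9 to 51.3%) of Sec23 UMIs in ENTERO-PRO, against 11.7% and 15.4% in GP and 31.8% and 27.3% in ISC. In GOBLET it was 29.4% and 43.5%, from 5 and 10 UMIs. Sec61a2 held 20.9% (16.6 to 25.7%) and 12.1% (10.2 to 14.2%) of the pore UMIs in ISC and 4.10% and 3.72% in GOBLET-PRE. Sec16b stayed the smaller part of the Sec16 pair everywhere, with 8.74% and 6.55% in GOBLET-PRE and 33.3% and 20.0% in GOBLET, from 4 UMIs in each GOBLET library.

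**Figure D5:**
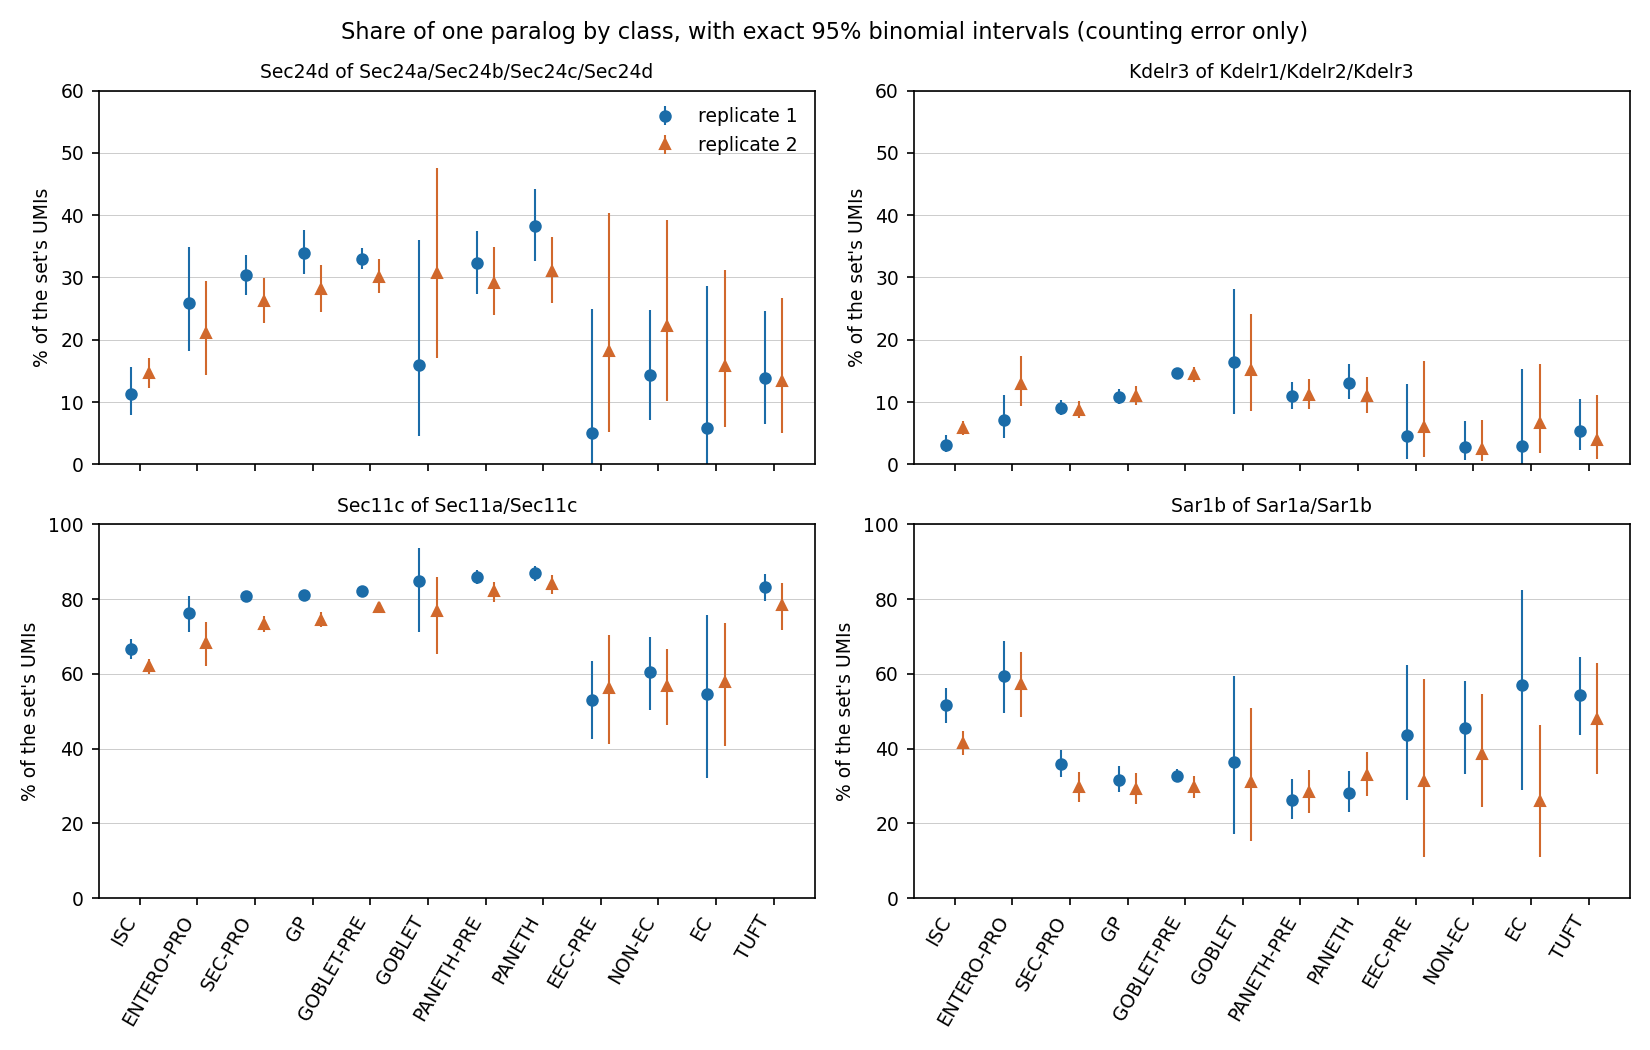
Share of one paralog in the UMIs of its set by cell class (y axis, %; circles replicate 1, triangles replicate 2; bars, exact 95% binomial intervals for counting error). Sec24d, Kdelr3 and Sec11c hold a larger part in the goblet and Paneth classes than in ISC, and Sar1b holds its largest part in ENTERO-PRO. The parts of Sec24d, Kdelr3 and Sec11c are also larger in SEC-PRO, GP and ENTERO-PRO than in ISC, and that of Sec11c also in TUFT. Sec24d in GOBLET rests on 4 and 12 UMIs.

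Positions of the members followed GENCODE M21 on mm10. The 53 genes lay on 17 chromosomes. Kdelr3 (ENSMUSG00000010830) runs on chromosome 15 from 79516411 to 79527739 on the plus strand, Sec24d (ENSMUSG00000039234) on chromosome 3 from 123267455 to 123365641 on the plus strand, and Mia3 (ENSMUSG00000056050) on chromosome 1 from 183326725 to 183369553 on the minus strand. Sec62 (ENSMUSG00000027706) lies on chromosome 3 from 30792875 to 30821263 and Ssr2 (ENSMUSG00000041355) on the same chromosome from 88575876 to 88588419, both on the plus strand. Exons of 17 members overlap those of another gene, so their counts are uncertain where the counting could not tell the genes apart, and no source used here gives its strand setting. Among them are Kdelr3 (with Ddx17), Sec61a1 (Gm44170), Sec61a2 (Nudt5), Sec62 (4933429H19Rik), Sec63 (Gm26860), Spcs3 (Asb5) and Sec23a (Gm17529) on opposite strands, and Sec11a (Nmb), Srprb (Gm20425) and Tmed7 (Ticam2) on the same strand.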

How the data were processed

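Droplet single-cell RNA-seq of 2 libraries was used. The authors deposited raw UMI counts per gene and barcode, made with Cell Ranger 3.0.2 and STAR on mm10 per the submitters' processing notes, and a table of cells with their classes and percent of mitochondrial UMIs per the file headers. No source used here gives how cells were selected and named or how doublets were treated; the listed cells were used as they stood and no doublet caller was run. The members, the other gene lists and the comparisons were chosen with earlier results of these data known.

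Counts were summed per class and library and tested with edgeR 4.0.16 in R 4.3.3 (filterByExpr, quasi-likelihood fit with class and library as terms, 11 residual degrees of freedom, median biological coefficient of variation 0.0641, prior count 2). All 24 sums entered 1 fit of 10994 genes, and p-values were adjusted over all of these genes in each of 11 tests. TMM factors were taken from 2194 genes whose mean log2 CPM was 6 or more. The library term is a block, since the classes of 1 library come from the same cells sorted and sequenced together. Deviations of the 2 libraries from the class means correlated in all 66 pairs of classes (r from 0.0551 to 0.777, median 0.297, over 3814 genes). Alternatives were TMM over all genes, no scaling, DESeq2 1.42.0, no low-count filter (18259 genes), no library term, cells thinned to 2000 UMIs (1276 of 11562 cells left out, 8160 genes), no genes over 1% of a sum (10677 genes) and each library alone. The edgeR steps were tested on simulated data.

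In each comparison the members named had the 4 highest and 4 lowest log2 values of all calls with the same direction in both libraries, all paralogs of the sets, and members at the ends of a range. From other lists the 3 genes with the smallest p were taken. Other members named, mostly those that did not pass, were chosen after their values were seen. Depth is given with each sum, and intervals cover counting error only.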

Additional observations from a re-analysis of the deposited data

Results flagged for a closer look

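In 4 members the change during Paneth maturation (PANETH against PANETH-PRE) differed from that during goblet maturation (GOBLET against GOBLET-PRE) by the edgeR test of the difference itself. On the log2 scale the difference was 1.24 for Lman1, 1.25 for Srp9, 0.819 for Sec62 and 0.799 for Sec11c, each with the Paneth change the larger. Of all genes tested 3.38% had a larger and 5.07% a smaller change in the Paneth step. Without the library term 1 member was still called, and without scaling Sec62 and Sec11c changed sign. Secreted cargo took up 77.4% and 74.2% of UMIs in PANETH and 40.2% and 40.5% in GOBLET, and its part in these differences was not tested. The outlying-sample check needs at least 4 samples in a group and was not made on 2 libraries.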

How the results depend on the processing

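The higher calls of SEC-PRO and ENTERO-PRO against ISC and the lower calls of EEC-PRE against SEC-PRO moved by less than 1.5 times under every alternative run, and results not given here kept their direction. With 2 libraries of 1 group, spread between animals cannot be told apart from spread between libraries. Each library alone left no residual degrees of freedom, so it gave values without a test.

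Without the library term, the block that pairs classes of 1 library, SEC-PRO against ISC had 0 lower, GP against SEC-PRO 0 higher and GOBLET-PRE against GP 0 higher. GOBLET against GOBLET-PRE then had 1 higher, PANETH-PRE against GOBLET-PRE 2 higher and 1 lower, PANETH against PANETH-PRE 1 higher, TUFT against ISC 3 higher and 0 lower, and the difference of the maturation steps 1 higher. Of 55 named changes, 26 were no longer called without this block and 9 with DESeq2, while without scaling 7 were no longer called and 7 more changed sign. In thinned cells 16 were no longer called and 37 kept their call; Sec61a2 and Sec16b were not tested there.

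Without scaling, GOBLET-PRE against GP had 8 lower with a median log2 change of -0.121, GOBLET against GOBLET-PRE 0 higher and 33 lower, and PANETH-PRE against GOBLET-PRE 1 higher and 27 lower with a median of -0.30 (Sec61a1 at -0.023). Of all 10994 genes, 1741, 1703 and 2834 were lower in the same comparisons, in this order. PANETH against PANETH-PRE had 0 higher and 53 lower with a median of -1.8, where Srp68, Sec62, Srp9 and Srp14 were at -1.10, -1.14, -1.20 and -1.32. Of all genes 8987 were lower there. ENTERO-PRO against ISC had 1 lower, and the maturation difference 0 higher and 36 lower with a median of -1.04 (Sec62 at -0.307, Sec11c at -0.326). Of all genes 2597 and 2778 were lower in these, in this order. With TMM over all genes, GOBLET against GOBLET-PRE had 1 higher and 16 lower, PANETH-PRE against GOBLET-PRE 3 higher and 11 lower with a median of -0.041, TUFT against ISC 9 lower, the maturation difference 14 higher, and PANETH against PANETH-PRE a median of -0.034.

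DESeq2 gave 2 higher for PANETH-PRE against GOBLET-PRE, 9 lower for TUFT against ISC, 8 higher and 1 lower for the maturation difference, and a median of -0.015 for PANETH against PANETH-PRE. Thinned to 2000 UMIs, SEC-PRO against ISC had 0 lower, GOBLET against GOBLET-PRE 0 higher and 3 lower, PANETH-PRE against GOBLET-PRE 3 higher, PANETH against PANETH-PRE 2 higher and 4 lower with a median of -0.030, TUFT against ISC 2 lower and the maturation difference 1 lower. Without a low-count filter GOBLET against GOBLET-PRE had 1 higher and NON-EC against EEC-PRE 5 higher. Without genes over 1% of a sum, GOBLET against GOBLET-PRE had 1 higher and PANETH against PANETH-PRE a median of -0.0081. Leaving out a library moved the medians between -0.029 and 0.072 for PANETH-PRE against GOBLET-PRE and between -0.0094 and 0.100 for PANETH against PANETH-PRE. Apart from fewer cells and genes in the thinned data, the cause was not tested.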
